A study of Mus musculus with 6 samples.

Results

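The 9 genes described here encode secreted signals, receptors and a pair of receptor partners that shape branching of the ureteric bud, the epithelial tube around which nephron progenitors gather in the developing kidney. They are the growth factor gene Gdnf, its co-receptor gene Gfra1, the ligand genes Slit1, Slit2 and Slit3, the receptor genes Robo1 and Robo2, and Srgap1 and Srgap2, whose proteins bind Robo receptors and switch off small GTPases. They were chosen by name, and 9 of 9 were found among the 27179 Entrez Gene entries of the deposited table after its identifiers had been matched to mouse symbols. Values are in RPKM, which scales reads to gene length and to library depth, so levels of different genes can be compared per length. RNA was measured in Six2-positive nephron progenitors sorted from embryonic kidneys at E16.5. Control progenitors carried Six2TGC, a transgene that marks these cells with green fluorescence and makes Cre recombinase in them, while mutant progenitors were Six2TGC;miR-17~92fl/fl, with the same transgene and floxed copies of the microRNA cluster miR-17~92. There were 3 libraries per genotype, every one made from the pooled progenitors of 4 embryos, so the spread reported is that between pools, and its technical part is not known. Cells were sorted by the transgene's fluorescence. Floxed copies are not named in the controls' labels, and no strain background is given, so removal of the cluster and background carried with the floxed copies cannot be told apart.

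GDNF is secreted by the mesenchyme around the ureteric bud and acts on the receptor tyrosine kinase RET at the bud tip, with GFRA1 as the ligand-binding co-receptor. This signal drives outgrowth and branching of the bud, and its place and amount are tightly limited. SLIT2 and its receptor ROBO2 are known for restricting the domain that expresses Gdnf, since mice without either form extra ureteric buds. SRGAP1 and SRGAP2 carry the signal of activated Robo receptors to the actin cytoskeleton. MicroRNAs pair through their seed, bases 2 to 8, with short matches in the 3′ untranslated region of messenger RNAs and lower the amount or translation of those messengers.

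The mature microRNAs of the deleted cluster are shown because their seeds define which letters could pair with the 9 messengers. They lie on the plus strand of chromosome 14 in GRCm38.p6, which has the coordinates of mm10, and come from RefSeq, written 5′ to 3′ with the seed in capitals. The last line gives miR-218-5p, which is not part of the cluster but is encoded inside introns of Slit2 and Slit3.
miR-17-5p: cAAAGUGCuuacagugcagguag
miR-20a-5p: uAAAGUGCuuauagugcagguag
miR-18a-5p: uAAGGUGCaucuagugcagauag
miR-19a-3p: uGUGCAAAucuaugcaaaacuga
miR-19b-3p: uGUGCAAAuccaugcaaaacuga
miR-92a-3p: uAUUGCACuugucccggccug
miR-218-5p: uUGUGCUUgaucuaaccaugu
miR-17-5p and miR-20a-5p share a seed, and so do miR-19a-3p and miR-19b-3p, so the cluster has 4 different seeds.

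The longest annotated 3′ untranslated region of each gene (GENCODE M21, GRCm38) was searched, on the messenger strand only, for the complement of each seed, which is GCACTTT for miR-17-5p and miR-20a-5p, GCACCTT for miR-18a-5p, TTTGCAC for the miR-19 pair and GTGCAAT for miR-92a-3p. Of the 9 genes, Srgap1 had 3 matches, Robo2 had 2, and Gdnf and Robo1 had 1 each. Gfra1, Slit1, Slit2, Slit3 and Srgap2 had 0. These matches are printed with neighbouring bases, 5′ to 3′ on the messenger, with the match in capitals and the position of the capitals in mm10.
Gdnf, miR-92a-3p, chr15:7836482-7836488, plus strand: tgtcacctgaaaGTGCAATgaagg
Robo1, miR-92a-3p, chr16:73044459-73044465, plus strand: tgaaattgttcaGTGCAATcagaa
Robo2, miR-92a-3p, chr16:73895748-73895754, minus strand: taacatttaacaGTGCAATgaaca
Robo2, miR-19a-3p and miR-19b-3p, chr16:73895385-73895391, minus strand: ttatgtttaaatTTTGCACtgcga
Srgap1, miR-18a-5p, chr10:121783077-121783083, minus strand: gtctccaggtaaGCACCTTaacac
Srgap1, miR-17-5p and miR-20a-5p, chr10:121781096-121781102, minus strand: tgtcgtgacgatGCACTTTtctgt
Srgap1, miR-19a-3p and miR-19b-3p, chr10:121782683-121782689, minus strand: agaaccacgcggTTTGCACccctg
The match of a microRNA to a few letters is a description and not a binding site. Among 11573 expressed genes with an annotated region, 34.6% held at least 1 of the 4 matches, and the miR-92a-3p match, which 3 of the 9 genes hold, occurred in 7.94%. The regions searched were mostly long, between 1212 and 4407 bases except for Slit3 with 365, where the median of all searched genes was 1231.

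The match to miR-218-5p, AAGCACA, was looked for in the same regions, since this microRNA is made from the Slit2 and Slit3 transcripts. It occurred in 15.8% of the expressed genes, and in Robo1 (1 match), Robo2 (2), Slit2 (2), Gfra1 (1) and Srgap2 (1). A match in each receptor is printed, chosen because an A follows it, as it also does in Srgap2.
Robo1, miR-218-5p, chr16:73045348-73045354, plus strand: ttttggttttaaAAGCACAatcac
Robo2, miR-218-5p, chr16:73895359-73895365, minus strand: ttatttggtgatAAGCACAaatct
The printed Robo2 match starts at base 461 of the 3′ untranslated region, and the match of that gene to the miR-19 seed starts at base 435.

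Library depth, worked out from the grid on which low RPKM values fall, was between 27602025 and 36134381 reads. The 9 genes had at least 307 reads in each library. Mir17, the first microRNA of the targeted cluster, was counted at 31, 26 and 16 reads in control replicates 1 to 3, against 2, 0 and 0 reads in mutant replicates 1 to 3. Mir17hg, the host transcript entry, which starts within the cluster and extends past it, went the other way, from 44.0 ± 9.71 to 212 ± 41.1 RPKM (SD, n = 3 each; log2 fold change 2.26, limma adjusted p 4.93e-05). Genotypes were compared with limma on log2(RPKM + 0.5), a scale that understates changes of low genes, and p-values were adjusted with the Benjamini-Hochberg method over the 13463 genes whose mean reached 0.5 RPKM. At an adjusted p of 0.05, 3.13% of these genes differed and 1.81% were lower in mutants. Of the genes that passed, 178 were higher and 244 lower, a split that became 302 and 154 after median-of-ratios scaling and 264 and 163 after quantile normalization. In the deposited values the median log2 fold change over all tested genes was -0.12, whereas it was -0.02 after quantile normalization and -0.00287 after median-of-ratios scaling, so the values of the 9 genes are also given relative to the median gene.

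All 9 genes passed the filter on low values. Gfra1 fell in the mutants and passed the test, and the other 8 genes did not pass. The groups did not overlap in 4 of the 9, Gdnf, Gfra1, Robo2 and Srgap1, each lower in mutants, and 18.0% of all tested genes lay lower without overlap. The same 4 genes were lower at an unadjusted limma p of 0.05, as were 13.7% of all tested genes. With voom, a limma method run here on the recovered reads, Gfra1, Robo2 and Srgap1 passed at an adjusted p of 0.05 and lay lower, and 2.93% of all genes did so.

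**Figure D1:**
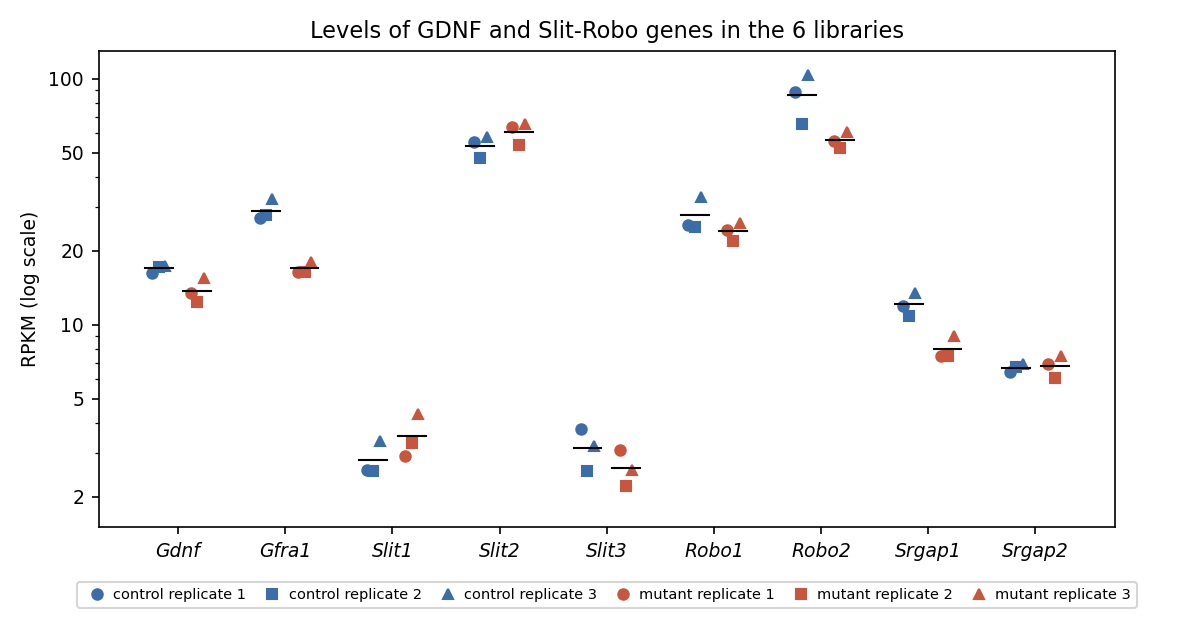
RPKM (log axis) of the 9 genes in each library, with controls in blue, mutants in red, a symbol shape for each replicate number and a black line at each group mean. The control and mutant points do not overlap for Gdnf, Gfra1, Robo2 and Srgap1.

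Gdnf (Entrez Gene 14573; chromosome 15, 7810048 to 7837580, mm10), the ligand gene, was at 16.2, 17.2 and 17.4 RPKM in control replicates 1 to 3 and at 13.4, 12.4 and 15.4 RPKM in mutant replicates 1 to 3. Each mutant pool lay below each control pool, and mutant replicate 3 came closest to the controls. The group means were 16.9 ± 0.647 and 13.7 ± 1.56 RPKM (SD, n = 3 each). On the log2 scale the mutants differed by -0.30 (standard error 0.13, limma adjusted p 0.246), so the difference did not pass, and relative to the median gene it was -0.17. The 95% interval of the log2 fold change ran from -0.59 to -0.01.

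Gfra1 (Entrez Gene 14585; chromosome 19, 58235581 to 58455946), the co-receptor gene, was at 27.2, 27.8 and 32.4 RPKM in the control pools and at 16.3, 16.4 and 18.0 RPKM in the mutant pools. The groups were well apart, with the highest mutant pool far below the lowest control pool, and the 3 mutant pools were close to each other. The mean fell from 29.1 ± 2.83 to 16.9 ± 0.958 RPKM (SD, n = 3 each), to 58.2% of the control level. This log2 fold change came to -0.76 (standard error 0.13, limma adjusted p 0.00775), with a 95% interval from -1.04 to -0.48, and was -0.64 relative to the median gene and -0.62 to -0.81 over the 15 alternatives. Without mutant replicate 2 the call was lost (limma adjusted p 0.0565), and over the alternatives the adjusted p ran from 0.00143 to 0.0565. The entry Gm10007 overlaps exon sequence of Gfra1, and at 27 to 77 reads per library against at least 1473 for Gfra1 it holds few reads.

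RET, the signalling partner of GFRA1, is a product of the ureteric bud and defines its tip cells. Ret was at 0.117 ± 0.0959 RPKM over controls and 0.159 ± 0.114 over mutants (SD, n = 3 each), with 4 to 56 reads per library. It lay below the filter, and its groups overlapped (exact two-sided permutation test, p = 0.7). Wnt11, another tip gene, averaged 0.408 ± 0.236 RPKM over controls and 0.31 ± 0.148 over mutants (SD, n = 3 each).

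Slit2 (Entrez Gene 20563; chromosome 5, 47981291 to 48307735) was by far the highest of the 3 ligand genes. It was at 55.3, 47.4 and 57.8 RPKM in the control pools and at 63.6, 53.7 and 65.3 RPKM in the mutant pools. The groups overlapped, since mutant replicate 2 lay below control replicates 1 and 3. The log2 fold change was 0.18, with a 95% interval from -0.11 to 0.48 (limma adjusted p 0.454), and 0.31 relative to the median gene.

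The other ligand genes were low. Slit1 (Entrez Gene 20562) was at 2.57, 2.55 and 3.37 RPKM in controls and at 2.93, 3.31 and 4.34 in mutants. Slit3 (Entrez Gene 20564) was at 3.77, 2.53 and 3.2 RPKM in controls and at 3.08, 2.21 and 2.56 in mutants. Both overlapped between genotypes and pointed opposite ways, with log2 fold changes of 0.27 for Slit1 (95% interval -0.13 to 0.67; limma adjusted p 0.427) and -0.23 for Slit3 (-0.64 to 0.18; 0.496). Relative to the median gene Slit1 was at 0.39 and Slit3 at -0.10.

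Robo2 (Entrez Gene 268902; chromosome 16, 73891976 to 75447443), the receptor whose loss lets extra buds form, was the highest of the 9 genes in controls. It was at 88.6, 65.4 and 104 RPKM in the control pools and at 55.8, 52.1 and 60.8 RPKM in the mutant pools. The controls were widely spread, with control replicate 2 not far above the highest mutant pool, while the mutant pools were close together. The means were 85.9 ± 19.4 and 56.2 ± 4.37 RPKM (SD, n = 3 each), the mutants at 65.4% of the controls. The receptor's log2 fold change of -0.59 (standard error 0.17) had a limma adjusted p of 0.0912 and did not pass; relative to the median gene it was -0.46. The difference passed without control replicate 2 (limma adjusted p 0.00488) and with voom (0.0228), and over the alternatives the adjusted p reached 0.332.

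Robo1 (Entrez Gene 19876; chromosome 16, 72027518 to 73047491), its close relative on the same chromosome, was at 25.4, 25.1 and 33.2 RPKM in controls and at 24.2, 21.9 and 26.0 RPKM in mutants. The groups overlapped, and control replicate 3 stood above the other 5 libraries. The log2 fold change was -0.20, with a 95% interval from -0.52 to 0.12 (limma adjusted p 0.446). It was -0.08 relative to the median gene and -0.07 after median-of-ratios scaling. The remaining Robo genes were near 0, with 0 reads of Robo3 over the controls and 1 over the mutants, and 23 and 34 reads of Robo4, the endothelial member.

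Srgap1 (Entrez Gene 117600; chromosome 10, 121780991 to 122047911), which links ROBO1 to inactivation of CDC42, was at 11.9, 10.8 and 13.5 RPKM in the control pools and at 7.43, 7.49 and 9.01 RPKM in the mutant pools. The groups did not overlap, and mutant replicate 3 was the highest mutant pool, as it was for every other gene of the set except Slit3. The means were 12.1 ± 1.34 and 7.97 ± 0.893 RPKM (SD, n = 3 each). Its log2 fold change of -0.57 (standard error 0.15) had a limma adjusted p of 0.0591 and did not pass; relative to the median gene it was -0.44. It passed without control replicate 2 (limma adjusted p 0.038), with robust variance moderation (0.0488) and with voom (0.0147), and over the alternatives the adjusted p reached 0.231.

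Srgap2 (Entrez Gene 14270; chromosome 1, 131285251 to 131527531), a relative known for shaping cell membranes and neuronal spines, was at 6.39, 6.73 and 6.92 RPKM in controls and at 6.93, 6.05 and 7.44 RPKM in mutants. The groups overlapped, and the log2 fold change was 0.02 with a 95% interval from -0.29 to 0.33 (limma adjusted p 0.946). Relative to the median gene Srgap2 was at 0.15. The third member of the family, Srgap3, was low at 1.51 ± 0.0682 and 1.55 ± 0.305 RPKM (SD, n = 3 each), and the genotypes differed by 0.01 on the log2 scale (limma adjusted p 0.973).

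**Figure D2:**
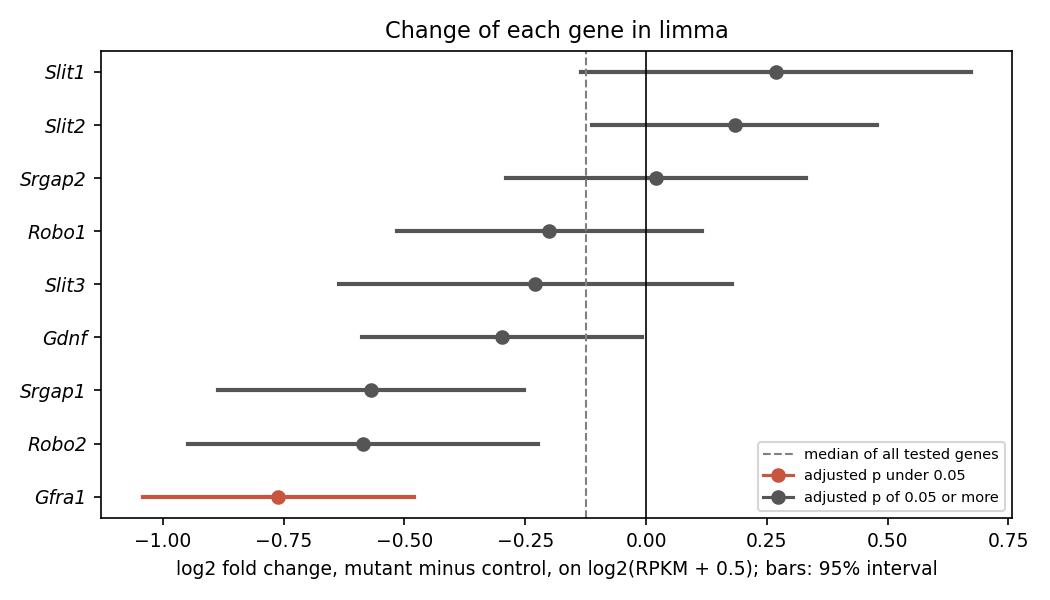
Log2 fold change of each gene, mutant minus control, on log2(RPKM + 0.5), with 95% intervals from limma; the solid line is 0 and the dashed line the median of all tested genes (-0.12). Gfra1, in red, is the gene with an adjusted p under 0.05, and the intervals of Gfra1, Robo2, Srgap1 and Gdnf lie below 0.

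The order of the levels differed between the genotypes at several places. In controls Robo2 came first and Slit2 second, and these did not overlap, whereas in mutants the ranges of Slit2 (53.7 to 65.3 RPKM) and Robo2 (52.1 to 60.8) overlapped. Gfra1 and Robo1 overlapped in controls, and in mutants Robo1 (21.9 to 26.0 RPKM) lay above Gfra1 (16.3 to 18.0) without overlap. Gdnf followed in both genotypes, above Srgap1. Srgap1 lay above Srgap2 without overlap in controls, and in mutants the lowest Srgap1 pool (7.43 RPKM) was level with the highest Srgap2 pool (7.44). Slit1 and Slit3 came last and overlapped in both genotypes. Robo2 and Slit2 were among the abundant transcripts of these cells, since 96.5% and 95.1% of tested genes had a lower mean, against 31.0% for Slit3.

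A ratio of genes taken within a library does not depend on how that library was scaled. For 6 such ratios between the genes, and 4 ratios to Six2, all chosen after the values had been seen, exact two-sided permutation tests were run, with 0.1 the smallest p that 3 against 3 libraries allow and 0.143 that value adjusted over the 10 ratios. None can therefore pass, and the ratios are given for their size. The groups did not overlap in 5 of the 6 ratios between genes. Slit2 and Robo2 enter these ratios repeatedly, and Gfra1, Robo2 and Srgap1 already did not overlap on their own. How often ratios of other gene pairs do not overlap was not worked out, so the count only describes these pairs.

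The ratio of Robo2 to its ligand gene Slit2 was 1.6, 1.38 and 1.8 in the control pools and 0.877, 0.97 and 0.931 in the mutant pools. Receptor transcripts were thus the more abundant per length in 3 of 3 controls and ligand transcripts in 3 of 3 mutants (exact permutation p = 0.1). The ratio of Robo2 to Robo1 was 3.08 ± 0.443 in controls and 2.34 ± 0.0385 in mutants (SD, n = 3 each; exact permutation p = 0.1), so the highest mutant ratio lay below the lowest control ratio. The ratio of Gfra1 to Gdnf was 1.72 ± 0.128 in controls and 1.24 ± 0.082 in mutants (SD, n = 3 each; exact permutation p = 0.1). That of Srgap1 to Srgap2 was 1.87, 1.61 and 1.95 in controls and 1.07, 1.24 and 1.21 in mutants. Among the ligands, Slit2 to Slit3 was 17.2 ± 2.19 in controls and 23.5 ± 2.54 in mutants (SD, n = 3 each; exact permutation p = 0.1), and Slit2 to Slit1 overlapped (exact permutation p = 0.6).

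**Figure D3:**
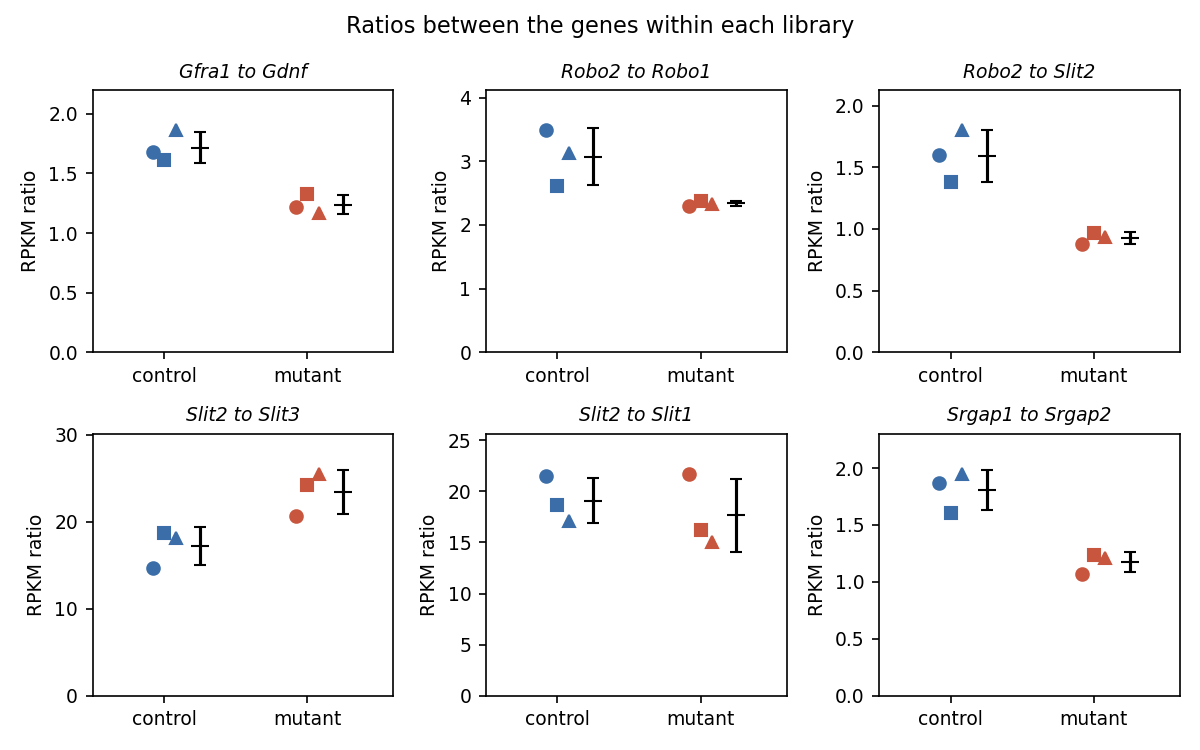
RPKM ratios between pairs of the genes within each library, with controls in blue, mutants in red, and the mean ± SD of 3 libraries in black; the axes start at 0. The mutant points lie apart from the control points in every panel but Slit2 to Slit1, and Robo2 to Slit2 is above 1 in the controls and below 1 in the mutants.

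The label of the sorted cells was checked with progenitor genes. Six2, the transcription factor gene that marks the sorted cells, was at 83.5, 69.9 and 104 RPKM in controls and at 63.5, 57.0 and 77.0 RPKM in mutants, with overlapping groups (log2 fold change -0.37, limma adjusted p 0.249). For Cited1, which marks the least committed progenitors, the log2 fold change was -0.39 (limma adjusted p 0.235). All 13 progenitor markers were expressed, with a summed level of 878 to 945 RPKM in controls and 687 to 802 RPKM in mutants, and Meox1 and Capn6 fell, Tmem100 rose and 10 did not pass. At an unadjusted limma p under 0.05, 6 were lower and 2 higher, where 13.7% of all tested genes were lower. Voom called 4 of these markers and 689 of all tested genes. The list median was -0.32 against -0.12 for all tested genes, with 9 markers below 0 and 4 above. Meox1 passed under every alternative run. With a replicate block neither Capn6 nor Tmem100 passed (limma adjusted p 0.0559 and 0.0538), nor did they after quantile normalization (0.206 and 0.0604) or with no filter (0.104 and 0.18), and Capn6 did not pass after median-of-ratios scaling (0.146). Capn6 passed with control replicate 3 left out and with no other library left out, and Tmem100 was lost when control replicate 1 (0.163), mutant replicate 1 (0.18) or mutant replicate 2 (0.194) was left out. In bulk RNA, fewer cells of a type and less RNA per cell cannot be told apart. Set against Six2 within each library, Gfra1 was at 0.326, 0.398 and 0.312 in controls and at 0.257, 0.289 and 0.234 in mutants, without overlap. Robo2 to Six2 did not overlap either, at 0.935 to 1.06 in controls and 0.789 to 0.914 in mutants. Srgap1 to Six2 and Gdnf to Six2 overlapped, and the Gdnf ratio was 0.203 ± 0.0403 in controls and 0.21 ± 0.00847 in mutants (SD, n = 3 each; exact permutation p = 0.7).

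Markers of other cells were also set beside the 9 genes. Of all 13463 tested genes, 2641 had an unadjusted limma p under 0.05, 1841 of them lower in mutants, and voom called 295 genes higher. The 17 ureteric bud and collecting duct genes summed to 30.5 to 37.7 RPKM in controls and 30.9 to 45.2 RPKM in mutants, with Hoxb7 alone at 19.2 to 26.3 RPKM over the 6 libraries. Of 7 tested, 0 passed in limma, while 3 had an unadjusted p under 0.05, all higher in mutants, voom called 1, and the list median was 0.58. The 16 interstitium genes summed to 249 to 396 RPKM in controls and 313 to 413 RPKM in mutants. Control replicate 3 had the lowest sum and, among the 6 libraries, the highest Six2, Gdnf, Gfra1, Robo1, Robo2 and Srgap1. Of these genes 0 of 16 passed in limma, while 5 had an unadjusted p under 0.05, all higher in mutants, and voom called 0. Of the 16, 15 lay above 0, with a median of 0.32 against -0.12 for all tested genes. The 14 macrophage and leukocyte genes summed to 6.28 to 10.5 RPKM in controls and 17.4 to 19.9 RPKM in mutants, and 3 of 6 tested genes, Fcer1g, Ctss and Tyrobp, rose, while voom called 2. These 3 genes had few reads, with 13 to 48 per library for Fcer1g, 2 to 80 for Ctss and 0 to 25 for Tyrobp. Fcer1g and Ctss passed under every alternative in which they were tested. Tyrobp did not pass with voom (adjusted p 0.0525), a pseudocount of 0.1 (0.116), quantile normalization (0.0805), no filter (0.186) or a single mutant replicate left out (0.129 to 0.236). Of 12 committed progenitor and renal vesicle genes, Cdh6 and Emx2 rose and 9 of 11 tested did not pass. At an unadjusted limma p under 0.05, 4 were higher and 0 lower, and voom called 2. Of the 11, 10 lay above 0, with a median of 0.33. With no filter the limma calls of Cdh6 and Emx2 were lost (limma adjusted p 0.0757 and 0.153). Cdh6 was also lost when mutant replicate 1 (0.0776) or mutant replicate 3 (0.0576) was left out, and Emx2 when control replicate 1 (0.134) or any single mutant replicate (0.103 to 0.161) was. Neuron and Schwann cell genes summed to 4.91 to 7.93 RPKM in controls and 7.43 to 9.04 RPKM in mutants, and Stmn2 rose. That call was lost with no filter (limma adjusted p 0.0825) and when control replicate 1 (0.0952), control replicate 2 (0.0527) or mutant replicate 2 (0.0655) was left out. Stmn2 fell below the filter and was not tested with a filter at a mean of 1 RPKM or without mutant replicate 1 or 3. The part of these cell types and of the progenitor genes in the values of the 9 genes was not tested.

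The wider pathways were read from the same fit, with lists chosen while earlier results of these data were known. In either direction, 2641 of all 13463 tested genes had an unadjusted limma p under 0.05, and voom called 689. The 9 genes had a median log2 fold change of -0.23, against -0.12 for all tested genes, with 6 below 0 and 3 above. Of 10 other GDNF family ligands and receptors, 4 passed the filter and 0 passed in limma, while 2 had an unadjusted p under 0.05 and voom called 1. The ligand genes Nrtn, Artn and Pspn were among the 6 below the filter. Ncam1, which encodes an alternative GDNF receptor that works with GFRA1, averaged 21.4 ± 1.78 RPKM over controls and 29.3 ± 2.7 over mutants (SD, n = 3 each; log2 fold change 0.44, limma adjusted p 0.101). It passed after median-of-ratios scaling (0.0287), quantile normalization (0.0382), with voom (0.0429) and without control replicate 3 (0.0351). Sdc3, a heparan sulphate proteoglycan gene whose product binds GDNF, differed by -0.39 on the log2 scale (limma adjusted p 0.191).

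Of 25 genes known to regulate Gdnf in the kidney mesenchyme, 22 were tested, 1 fell and 21 did not pass, and the list median was -0.06. At an unadjusted limma p under 0.05, 3 were lower and 2 higher, and voom called 2. The gene that fell was Six4, a homeobox gene. It was at 10.1, 11.9 and 10.6 RPKM in the control pools and at 6.48, 5.99 and 6.98 RPKM in the mutant pools, without overlap (log2 fold change -0.70, standard error 0.14, limma adjusted p 0.0186). Its limma adjusted p was 0.0599 when control replicate 1 was left out, 0.0782 for mutant replicate 1 and 0.102 for mutant replicate 2, and the call was also lost with no filter on low values (0.0527). Eya1, a transcriptional cofactor needed for Gdnf expression, was very abundant at 284 ± 29.0 and 233 ± 17.2 RPKM (SD, n = 3 each; limma adjusted p 0.287). Pax2, Sall1 and Hoxd11, transcription factor genes of the same circuit, had log2 fold changes of 0.02, -0.10 and -0.17 (limma adjusted p 0.943, 0.671 and 0.498). Kif26b differed by -0.49 without overlap (limma adjusted p 0.0963) and passed with voom (0.035). Itga8 and Frem2 lay higher without overlap, at 0.34 and 0.35 (limma adjusted p 0.194 and 0.201). Itga8 passed without control replicate 3, and Frem2 after median-of-ratios scaling.

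Of 11 genes known to respond to RET in the ureteric tip, 9 were tested, 1 fell and 8 did not pass. At an unadjusted limma p under 0.05, 4 were lower and 0 higher, where 13.7% of all tested genes were lower, and voom called 3. Their list median was -0.38, 8 of 9 lay below the median of all genes, and Ret itself was near 0 here. The nephron progenitor list had a similar median of -0.32. Whether these genes respond to RET in the sorted cells was not tested. Met, the receptor gene for hepatocyte growth factor, fell from 20.5 ± 2.06 to 13.4 ± 1.66 RPKM (SD, n = 3 each; log2 fold change -0.60, standard error 0.14, limma adjusted p 0.0441). Its limma adjusted p was 0.218 without control replicate 1 and 0.0826 to 0.2 with a single mutant replicate left out, and the call was also lost after median-of-ratios scaling (0.0573) or quantile normalization (0.0602), and with no filter (0.108). The ETS factor genes Etv4 and Etv5, chosen after their values had been seen, had log2 fold changes of -0.67 and -0.51 (limma adjusted p 0.0567 and 0.0691). Etv4 passed with robust variance moderation (limma adjusted p 0.0458) and with voom (0.0341), and Etv5 with voom (0.0351).

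Of 24 Slit-Robo partners and effectors, 21 were tested and 0 passed in limma. At an unadjusted limma p under 0.05, 2 were lower and 1 higher, and voom called 1. The counts over all 13463 tested genes were 2641 at an unadjusted limma p under 0.05 and 689 called by voom. The list median of -0.14 lay close to that of all genes. Pak1, a kinase activated by RAC1 and CDC42, averaged 10.5 ± 1.52 RPKM over controls and 6.56 ± 0.905 over mutants (SD, n = 3 each; log2 fold change -0.64, limma adjusted p 0.0539). It passed without control replicate 3 (0.0119), with robust variance moderation (0.042) and with voom (0.0211). Abl1, a tyrosine kinase that acts on Robo receptors, differed by -0.41 on the log2 scale (limma adjusted p 0.134). The GTPase genes themselves, Rac1, Cdc42 and Rhoa, had log2 fold changes of -0.14, -0.25 and -0.14 (limma adjusted p 0.528, 0.379 and 0.583).

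**Figure D4:**
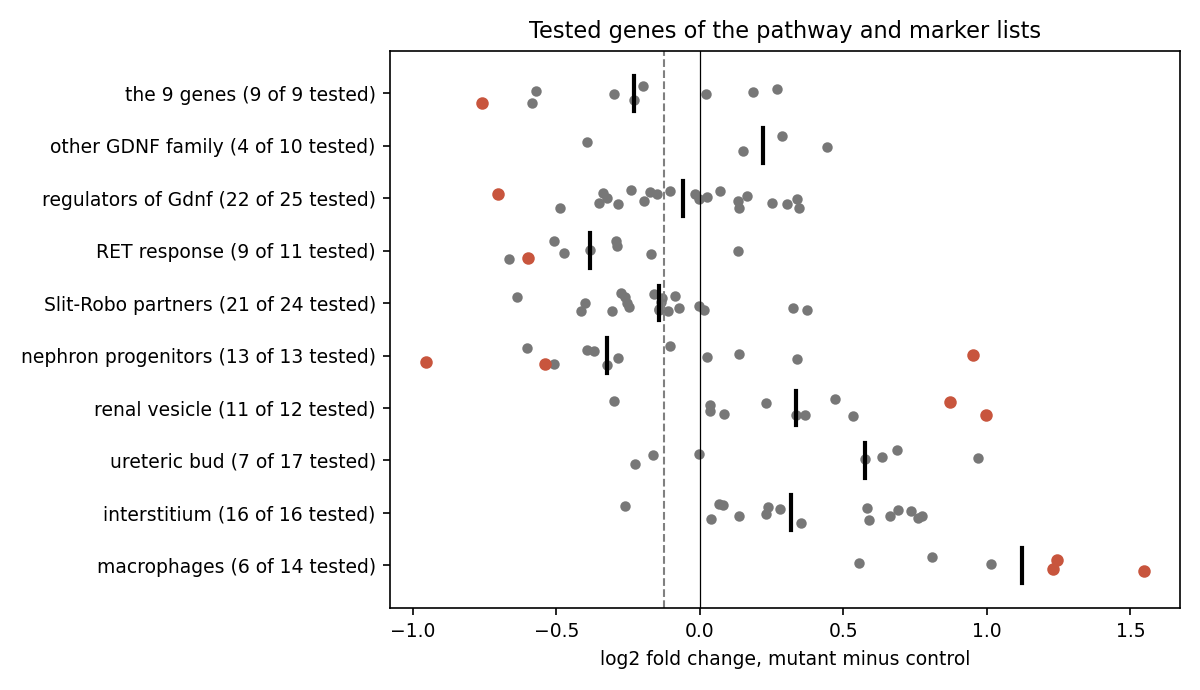
Log2 fold change, mutant minus control, of each tested gene in the 9-gene set, the pathway lists and the main marker lists; red points have an adjusted p under 0.05, black bars are list medians, the dashed line is the median of all tested genes (-0.12) and points are spread vertically for legibility. The RET response genes have a median of -0.38, the nephron progenitor genes one of -0.32 and the macrophage genes one of 1.12.

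The genes whose pattern over the 6 libraries was most like that of Gdnf and of Gfra1 were found among 12059 other tested genes with an approved symbol. Likeness was measured as the root-mean-square difference of log2(RPKM + 0.5) values, each gene centred on its own mean. Because genes were picked on these same values, fold changes near those of Gdnf and Gfra1 follow from the choice and are no separate result. For Gdnf the nearest were Rhobtb1 (0.018), Trp53inp2 (0.0217), Pam (0.0244) and Ralgds (0.026), where the median gene was at 0.208. None of these 4 passed in limma, and their log2 fold changes were between -0.30 and -0.28. For Gfra1 the nearest were Clec16a (0.0577), Bend4 (0.0841), Dapk1 (0.0863) and the FGF receptor gene Fgfr1 (0.0899), where the median gene was at 0.378. Each of these 4 fell, Fgfr1 from 55.5 ± 2.75 to 35.5 ± 2.54 RPKM (SD, n = 3 each; log2 fold change -0.64, limma adjusted p 0.0156). Without mutant replicate 2 none of these 4 passed (limma adjusted p 0.072 to 0.103). Fgfr1, Clec16a and Dapk1 were also lost when control replicate 1 (0.0811 to 0.0815) or mutant replicate 1 (0.0578 to 0.0997) was left out, and Fgfr1 (0.0511) and Dapk1 (0.0556) for mutant replicate 3. Fgfr1 did not pass after quantile normalization (0.0699), nor Clec16a (0.076) and Dapk1 (0.0541) with no filter. Among the 9 genes, Srgap1 (0.115) and Robo2 (0.18) were nearest to Gfra1, and Robo1 (0.128) was nearest to Gdnf.

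**Figure D5:**
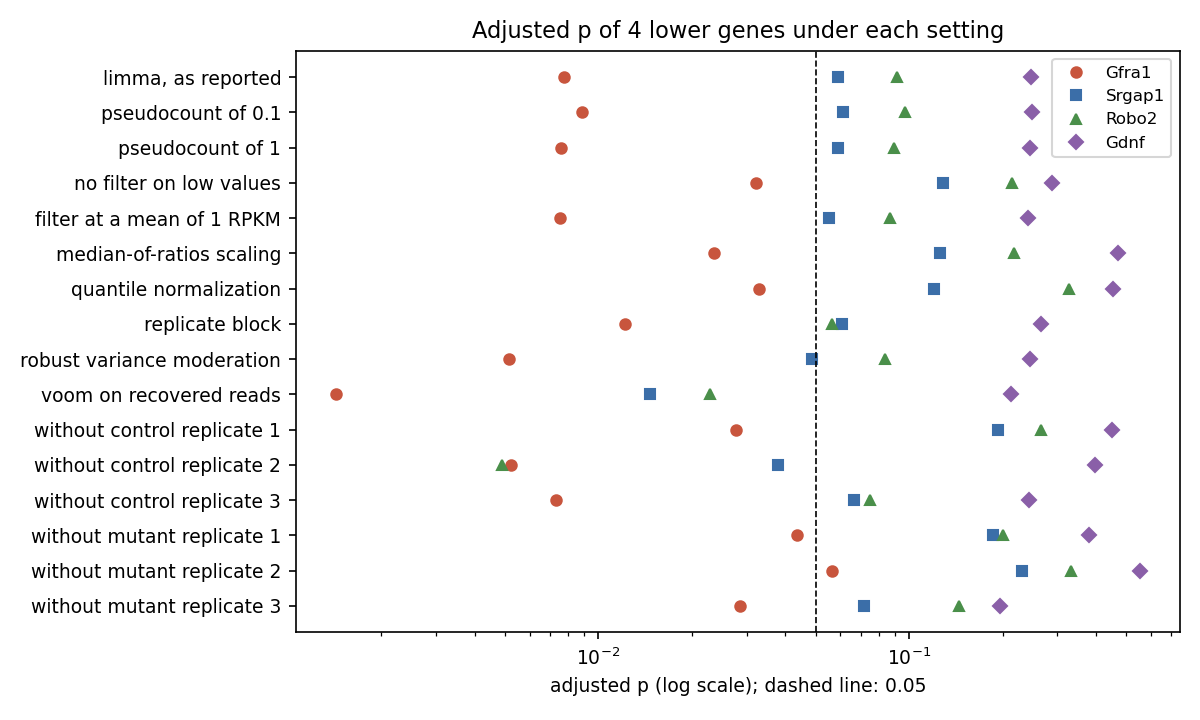
Limma adjusted p (log axis) of Gfra1, Srgap1, Robo2 and Gdnf as reported and under 15 alternatives; the dashed line marks 0.05. Gfra1 lies below 0.05 except without mutant replicate 2 (0.0565), Gdnf lies above it throughout, and Srgap1 and Robo2 cross it under some settings, both of them without control replicate 2.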

How the data were processed

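RPKM values of 27179 Entrez Gene entries were deposited by the authors in 1 table covering 3 control and 3 mutant pools. RNA was amplified and sequenced as paired reads, per the labels' protocols. Per the submitters' processing notes, the build was mm10 and the tools included FastQC and limma. The alignment files were named for subread, an aligner, per the file headers. How reads were counted, with which annotation and strand setting, is not given in the sources used here, and overlapping genes could share reads.

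Symbols were matched for 25275 entries through RefSeq (GRCm38.p6). Whole reads and counted gene lengths were worked out from the grid of RPKM values, with a tolerance of 0.1 read, for 13462 of 13463 tested genes; the recovered reads summed to between 99.64% and 99.69% of the depth, and whether a read or a read pair was the unit is not known. The genotype comparison used limma 3.58.1 (R 4.3.3) on log2(RPKM + 0.5) with a mean-variance trend, 1 term for genotype, a filter at a mean of 0.5 RPKM and two-sided tests with Benjamini-Hochberg adjustment at 0.05. Intervals are limma's 95% intervals. The fit and the recovery of reads were tested on simulated data. Sequences were searched with Python 3.11.15. The members and lists were chosen with earlier results of these data known. Named genes were the 9 genes, in each pathway list those that passed or otherwise the 2 of lowest p, the closest relatives, Six2, Cited1 and Mir17, and the 4 nearest patterns to Gdnf and to the gene of lowest p; others named are list members given as context, chosen after their values were seen.

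Alternatives were pseudocounts of 0.1 and 1, no filter, a filter at a mean of 1 RPKM, median-of-ratios and quantile scaling, a replicate block, robust variance moderation, voom on recovered reads and leaving out each library.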

Additional observations from a re-analysis of the deposited data

How the results depend on the processing

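Of 135 fold changes of single genes recomputed over 15 alternatives, 127 kept their direction and their side of the threshold, 1 lost its call (Gfra1), 5 gained one (Robo2 and Srgap1) and 2 reversed. Both reversals were of Srgap2, whose log2 fold change was -0.01 without control replicate 1 and -0.041 without mutant replicate 3, in a range of -0.041 to 0.10 with single libraries left out. The number of the 9 genes called, 1 as reported, was 2 with robust variance moderation, 3 with voom and 0 to 3 with single libraries left out. It was 0 in limma without mutant replicate 2, where 3 genes had an unadjusted p under 0.05, and 3 without control replicate 2. The number called in the pathway lists, 2 as reported, was 4 after median-of-ratios scaling, of which 3 were higher, 4 with robust variance moderation, 7 with voom and 0 to 7 with single libraries left out, with 7 without control replicate 3. In limma it was 0 with no filter on low values (17 at an unadjusted p under 0.05), 0 when control replicate 1 (10), mutant replicate 1 (14) or mutant replicate 2 (13) was left out, and 1 without mutant replicate 3. Of all tested genes 422 were called as reported, 143 with no filter, 689 with voom and 148 to 1083 with single libraries left out: 210 without control replicate 1, 1083 without control replicate 3, and 202, 148 and 243 without mutant replicates 1, 2 and 3.

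With a replicate block, limma called 1 of the 9 genes, 1 pathway gene, since Met did not pass (adjusted p 0.0528), and 393 of all tested genes; of the named marker genes it lost Capn6 (0.0559) and Tmem100 (0.0538). The replicate numbers were not taken as pairs, because same-numbered libraries correlated in their deviations from the group means by 0.0526, 0.157 and 0.153; each library did correlate best with its own number, a hint from the data and not the design. The cause of these changes was not tested. Gdnf was not called under any of the 15 alternatives, and with 3 pools per genotype the 95% intervals of the 8 genes that did not pass remained wide.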

Other observations

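A pair of small entries inside introns of the long genes gave values that belong to no comparison above, and these are given without explanation. Mir218-1 lies on the same strand in an intron of Slit2 (chromosome 5, 48223942 to 48224051), and whole-transcriptome reads counted to it came to 106, 48 and 140 in control replicates 1 to 3 and to 143, 112 and 139 in mutant replicates 1 to 3. Mir691 lies in an intron of Robo2 (chromosome 16, 74341990 to 74342067), where control replicates 1 to 3 had 113, 60 and 137 reads and mutant replicates 1 to 3 had 69, 45 and 51. Neither passed in limma (adjusted p 0.319 for Mir218-1 and 0.229 for Mir691), and the levels of mature microRNAs were not measured. Control replicate 2 was the lowest control in both entries, as it was in the RPKM of Slit2 and of Robo2. Mir218-2, in an intron of Slit3, had 5 reads summed over control libraries and 0 over mutant libraries.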
